A study of Mus musculus with 15 samples.

Results

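The genes described here encode voltage-gated and potassium ion channels of the mouse optic nerve: potassium channel subunits (symbols starting with Kcn), sodium channel alpha and beta subunits (Scn) and calcium channel subunits (Cacna, Cacnb and Cacng). They were taken from the deposited expression table by symbol, which gave 61 of the 14237 listed genes: 40 potassium, 4 sodium and 17 calcium channel genes. Of these, 60 code for proteins and were sorted by role into 11 classes, and the other one, Kcnq1ot1, is a non-coding RNA that overlaps a potassium channel gene.

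The libraries came from the optic nerve RNA of adult mice of the C57BL/6J strain, and each of the 3 groups held 5 biological replicates numbered 2 to 6. In the crush AAV-CNTF group the eye had received AAV2 (a viral gene carrier) with a secretable form of ciliary neurotrophic factor (CNTF, a cytokine) by intravitreal injection, the nerve was crushed 2 weeks later and it was collected 7 days after the crush. The crush AAV-null group had the same schedule with AAV2-Null, a vector without a transgene. The sham group, whose nerve was operated on without crush, also had AAV2-Null, and the labels give no times for it, so all 3 groups had a virus injected and none was untouched. The virus is placed in the eye, and the RNA comes from the nerve, where the axons but not the cell bodies of the injected retina run.

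Potassium channels set the resting voltage of neurons and glia and end action potentials. Inward rectifiers in astrocytes and oligodendrocytes take up the potassium that firing axons release. Along a myelinated axon, sodium channels and M-type potassium channels cluster at the nodes of Ranvier, and shaker-type potassium channels sit under the myelin beside them. The gamma subunits of calcium channels include proteins that escort AMPA glutamate receptors to the membrane.

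The potassium channels share one stretch of protein, the selectivity filter, which the ion passes through in single file. Its signature in most of them is threonine, a variable residue, glycine, tyrosine or phenylalanine and glycine. In reference transcripts (GENCODE M21), codons of this signature were found in frame in 29 of the 32 pore-forming potassium channel genes listed here, once in 26 and at 2 places in 3, all of them tandem-pore channels. Examples shown are the coding stretches of 4 inward rectifiers that changed after crush, the most abundant voltage-gated member and the calcium-activated member that rose. Capitals mark the 5 signature codons, and the 15 bases on either side are in lower case.
Kcnj16, chromosome 11: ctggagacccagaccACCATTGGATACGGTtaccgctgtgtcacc
Kcnj8, chromosome 6: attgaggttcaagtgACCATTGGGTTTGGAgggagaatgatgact
Kcnj2, chromosome 11: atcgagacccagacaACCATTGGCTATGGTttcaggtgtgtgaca
Kcnj15, chromosome 16: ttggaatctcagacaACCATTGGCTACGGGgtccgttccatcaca
Kcna1, chromosome 6: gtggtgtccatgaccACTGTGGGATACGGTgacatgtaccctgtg
Kcnn4, chromosome 7: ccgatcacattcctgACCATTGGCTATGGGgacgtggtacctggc
The fourth signature codon is a tyrosine codon in Kcnj16, Kcnj2, Kcnj15, Kcna1 and Kcnn4 and a phenylalanine codon in Kcnj8.

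Levels are given as CPM (edgeR's depth-scaled count unit, over the listed genes and with TMM scaling) to compare libraries, and as FPKM (per length of the gene, from the authors' deposited values) to compare genes. Values of single libraries are in the order of replicates 2 to 6. The libraries held 19856705 to 29558299 expected counts over the listed genes. Crush AAV-null replicate 6 stood apart, with 3.18% of listed genes lacking any count, where other libraries had 0.976% to 2.32%. Markers of the tissue were present in every group: the summed level of 12 oligodendrocyte genes was 17889 to 25709 CPM in crush AAV-CNTF, 21849 to 30441 CPM in crush AAV-null and 51644 to 65621 CPM in sham libraries, and none of them or of the 11 astrocyte genes was at 0 throughout a group. Skeletal muscle genes, 7 of which were tested, summed to 5.75 to 42.8 CPM, 11.9 to 68.8 CPM and 19.2 to 217 CPM in the same order of groups, highest in sham replicate 5.

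In uncrushed nerves the most abundant channel transcript per length was that of Kcnj10, the main glial inward rectifier, at 137 ± 11.4 FPKM (SD, n = 5). Kcna1, a shaker-type channel of the juxtaparanode, followed at 83.5 ± 12.4 FPKM, then Cacng7 at 54.2 ± 7.199, Kcna6 at 38.1 ± 4.33 and Kcnq3 at 23.9 ± 3.29 FPKM (SD, n = 5 each). The library ranges of neighbours in this order did not overlap down to Kcnq3. Kcnq3, at 20.5 to 27.9 FPKM, overlapped Cacng4, at 18.7 to 22.2 FPKM. The remaining members lay lower on average, and the means of most were under 10 FPKM. Sodium channel pore subunits were low, with Scn2a at 2.05 ± 1.48 and Scn8a at 2.002 ± 1.27 FPKM in sham nerves (SD, n = 5 each). The channel genes Scn1a, Scn4b, Kcnk4 and Scn7a are not among the 61 listed members, so they were not analysed here.

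The listing of the table bears on which members are seen. Every listed gene reached an FPKM of 1 in 4 or more libraries of one group, and of the 139 genes that the symbols match in GENCODE M21, 61 were listed. Of these, 42 met that level in sham and in a crush group. Another 12 met it in crush groups only (Cacna2d2, Cacng5, Cacng8, Kcna5, Kcnh2, Kcnj15, Kcnk5, Kcnn4, Kcns3, Kcnt2, Scn2a and Scn3b), and 7 in sham only (Cacna2d4, Cacng3, Kcnab1, Kcnh5, Kcnip1, Kcnip4 and Kcnn2). Of those listed through crush groups only, Cacng8, Kcnh2, Kcnk5 and Kcns3 met it in crush AAV-CNTF only. Cacna2d2, Scn2a and Scn3b met it in crush AAV-null only. A gene listed through one side or one group tends to be high there, so the counts of members below are descriptions.

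Crush with AAV-null against sham with AAV-null asks how injury alone bears on these transcripts. After crush, the potassium channel pair Kcnj10 and Kcnj16, known from glia, fell, together with shaker-type and M-type channel genes (Kcna1, Kcna2, Kcna6 and Kcnq3). Cacng3, a glutamate receptor escort, fell to near 0. Whole-nerve RNA does not show which cells held these transcripts. Kcnj15, Kcnj2, Kcnn4, Kcne1l and Cacng5 rose. Of these, Kcnj15, Kcnn4 and Cacng5 are listed through the crush groups only, and Cacng3 is listed through sham only. By edgeR's quasi-likelihood test over the whole table, adjusted by Benjamini-Hochberg with a threshold of 0.05, 10 members were higher and 15 lower, 41.0% of 61 in either direction, where 27.6% of all 14194 genes tested were called. Without the single library crush AAV-null replicate 6 the count of higher members was 6. For higher calls the shares were 16.4% of members and 14.7% of all genes, and for lower calls 24.6% of members and 12.9% of all genes. The class shares given below rest on few genes each and are descriptions. The median log2 fold change was -0.20 over the members and 0.00 over all genes tested. The 5 crush AAV-null and 5 sham libraries did not overlap in CPM for 15 members (24.6%), near the 20.6% of all genes. Since the sample is whole tissue, fewer cells of a type and less RNA per cell cannot be told apart. Cell type markers moved too: all 12 oligodendrocyte genes and 9 of 11 astrocyte genes were lower, 11 of 12 microglia and macrophage genes and all 6 genes of dividing cells were higher, and their part in the channel results was not tested.

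**Figure D1:**
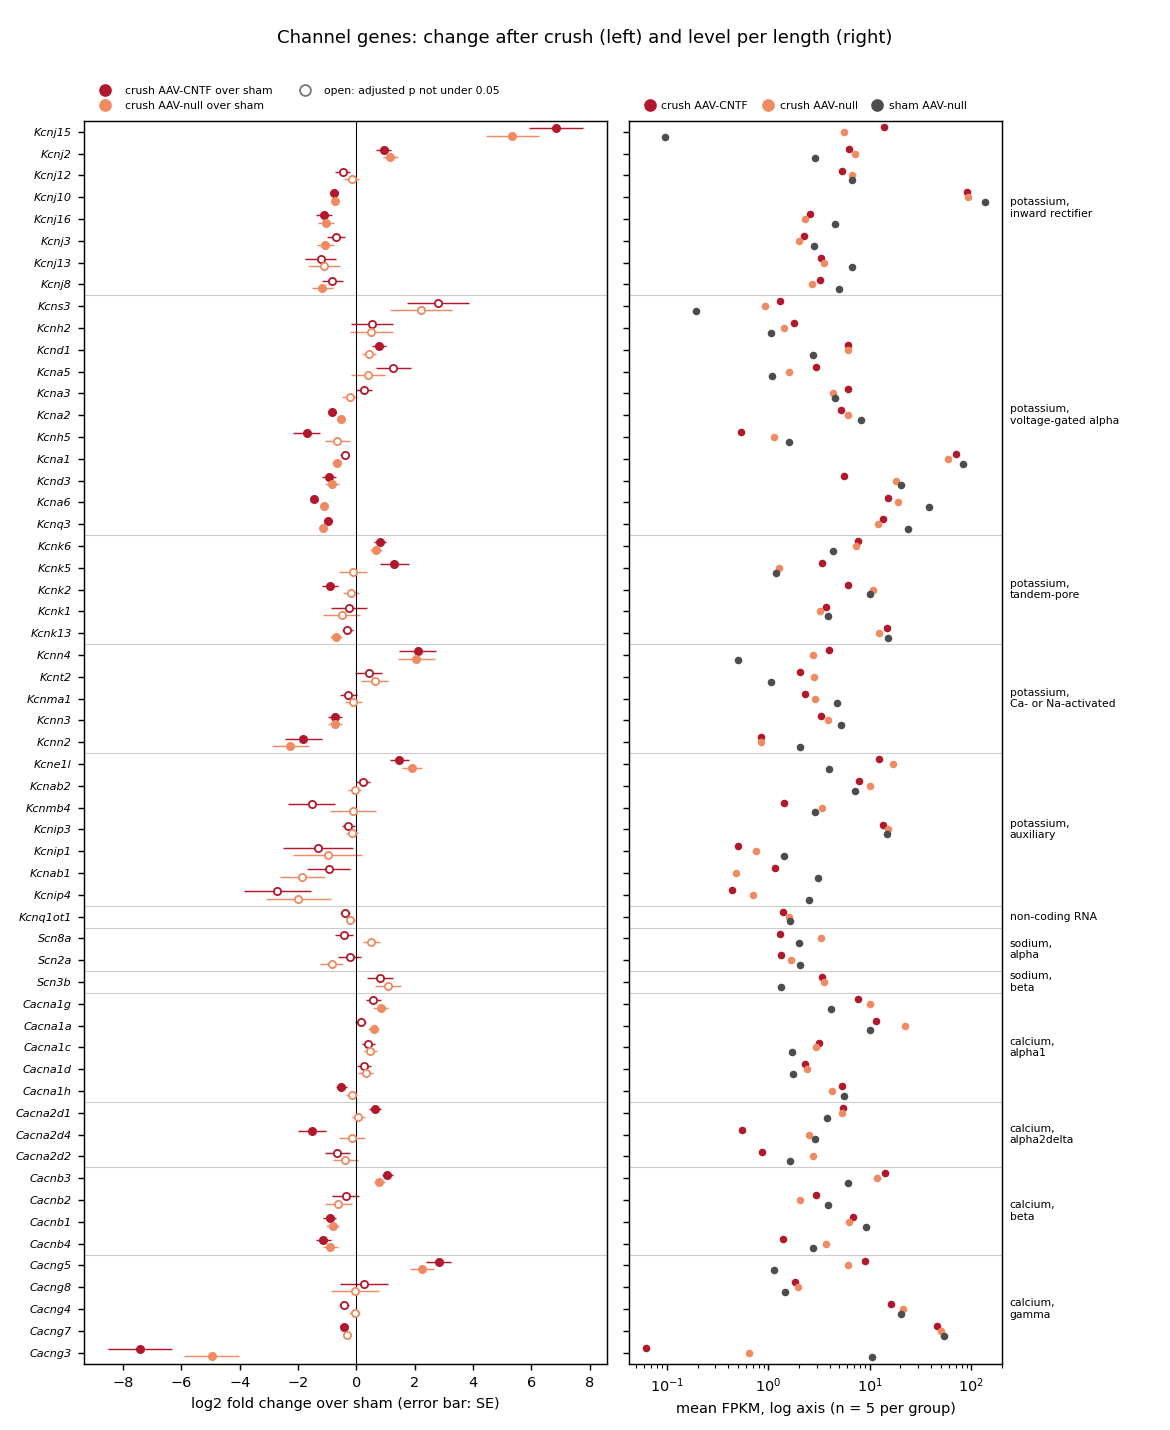
Left, log2 fold change of 57 of the 61 channel genes over sham with its SE, for crush AAV-CNTF (dark red) and crush AAV-null (orange), with filled points where the adjusted p was under 0.05. Right, mean FPKM per group on a log axis (n = 5 each), where Kcnj10 in sham (dark grey) lies highest at 137 FPKM and Cacng3 and Kcnj15 show the widest gaps between groups.

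Of the 8 inward rectifiers, 4 fell and 2 rose with AAV-null, where 12.9% of all genes tested were lower and 14.7% higher. Kcnj10 (chr1:172341210-172374085, mm10), whose product carries most potassium uptake of astrocytes and is also found in oligodendrocytes, had 512, 431, 489, 394 and 453 CPM in crush AAV-CNTF nerves, 499, 385, 509, 446 and 467 CPM in crush AAV-null nerves and 868, 772, 752, 686 and 796 CPM in sham nerves. All 10 crush libraries lay below all 5 sham libraries, and crush AAV-null over sham gave a log2 fold change of -0.75 ± 0.10 (SE; edgeR's quasi-likelihood test, Benjamini-Hochberg adjusted p = 6.39e-06). Kcnj16, which joins Kcnj10 in mixed channels, had 9.66, 5.29, 5.08, 5.36 and 8.38 CPM in crush AAV-CNTF nerves, 5.67, 8.44, 5.598, 6.09 and 9.54 CPM in crush AAV-null nerves and 19.6, 15.9, 11.9, 12.7 and 13.1 CPM in sham nerves. No crush library reached the lowest sham library, and the log2 fold change was -1.05 ± 0.27 (SE; adjusted p = 0.00565, same test). Kcnj10 held most of the class. The summed FPKM of the 8 genes was 127 ± 6.05 in crush AAV-CNTF nerves, 122 ± 8.48 in crush AAV-null nerves and 166 ± 11.8 in sham nerves (SD, n = 5 each), and Kcnj10 made up 71.3%, 75.5% and 82.7% of the sum in the same order.

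Genes of proteins that sit with Kcnj10 in astrocyte membranes fell as well. Of 10 such genes, 6 were lower after crush with AAV-null and none was higher, where 12.9% of all genes tested were lower and 14.7% higher. Among the lower were Hepacam (log2 fold change -1.17 ± 0.10, SE), Mlc1 (-1.01 ± 0.11), Dtna (-0.90 ± 0.13), Aqp4, the water channel of astrocyte endfeet (-0.62 ± 0.12), and Gja1, a gap junction protein (-0.43 ± 0.11). The largest adjusted p among these 6 was 0.00633 (edgeR's quasi-likelihood test, Benjamini-Hochberg). Of 15 genes for the sodium pump and for chloride or sodium-calcium exchange, 7 were lower and 2 were higher, among the higher Slc12a7 (1.53 ± 0.24, SE).

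Kcnj8, the pore subunit of ATP-sensitive potassium channels in pericytes and smooth muscle, had 6.05, 9.61, 5.99, 6.80 and 6.47 CPM in crush AAV-CNTF nerves, 11.2, 2.62, 3.21, 4.197 and 6.29 CPM in crush AAV-null nerves and 18.2, 12.8, 7.12, 10.9 and 12.8 CPM in sham nerves. The highest crush AAV-null library, replicate 2, overlapped the sham range. Its log2 fold change was -1.17 ± 0.36 (SE; edgeR adjusted p = 0.0198), and the call was lost without crush AAV-null replicate 3 (adjusted p = 0.0531), without crush AAV-null replicate 4 (0.0523), without sham replicate 2 (0.0661) and with the summed level of the skeletal muscle list as a covariate (0.0578). Of 9 tested pericyte and smooth muscle genes, 3 (Tagln, Acta2 and Anpep) were higher with AAV-null and 1 (Vtn) was lower. Of all genes tested, 14.7% were higher and 12.9% lower. The summed level of the list was 585 to 754 CPM in crush AAV-null and 452 to 645 CPM in sham libraries. The part of these cells in the Kcnj8 result was not tested.

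Kcnj3, a G protein-gated rectifier, had 9.01, 6.18, 7.48, 5.74 and 5.43 CPM in crush AAV-CNTF nerves, 4.89, 4.84, 8.42, 5.46 and 2.84 CPM in crush AAV-null nerves and 10.9, 7.24, 11.6, 12.9 and 12.5 CPM in sham nerves. Crush AAV-null replicate 4 exceeded the lowest sham library, and the other 4 lay below all sham libraries. The log2 fold change was -1.06 ± 0.30 (SE; edgeR adjusted p = 0.0117). In GENCODE M21, 31.1% of its exonic bases overlap a non-coding gene on the other strand, and since the sources used here do not state whether counting used strand, their reads cannot be told apart. Kcnj13, best known from epithelia, had 3.31 ± 1.35 CPM in crush AAV-CNTF nerves, 3.58 ± 1.34 CPM in crush AAV-null nerves and 7.75 ± 5.75 CPM in sham nerves (SD, n = 5 each; adjusted p = 0.139 for crush AAV-null over sham by edgeR), and 49.1% of its exonic bases overlap Gigyf2. Kcnj12, a strong rectifier, had 10.8 ± 2.31 CPM in crush AAV-CNTF nerves, 13.3 ± 3.85 CPM in crush AAV-null nerves and 15.01 ± 5.17 CPM in sham nerves (SD, n = 5 each; edgeR adjusted p = 0.696).

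Kcnj15 (chr16:95257558-95300260), an inward rectifier known from kidney and pancreas and listed through the crush groups only, went the other way. It had 6.65, 69.8, 44.5, 108 and 46.5 CPM in crush AAV-CNTF nerves, 3.23, 35.6, 11.4, 28.1 and 19.2 CPM in crush AAV-null nerves and 0, 0, 2.14, 0 and 0.202 CPM in sham nerves. In 3 sham libraries there was no count, and every crush library lay above every sham library, but the crush libraries differed widely among themselves, with replicate 2 lowest in both crush groups. The log2 fold change over sham was 5.35 ± 0.90 with AAV-null (SE; edgeR adjusted p = 0.000117), and the call was lost in limma-voom with sample quality weights (adjusted p = 0.356). Fibroblast and meningeal markers also rose, 4 of 8 genes, and none was at 0 throughout a group. Their summed level was 4223, 10457, 8130, 12040 and 5845 CPM in crush AAV-CNTF, 4544, 6227, 4730, 7711 and 7525 CPM in crush AAV-null and 1374 to 2992 CPM in sham libraries. Crush AAV-CNTF replicate 5 was highest and replicate 2 lowest of that group in both measures, and the part of these cells in the Kcnj15 result was not tested.

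Kcnj2 (chr11:111066164-111076821), a strong inward rectifier found in muscle, endothelium and microglia, had 23.2, 37.7, 31.1, 33.2 and 30.3 CPM in crush AAV-CNTF nerves, 28.9, 34.05, 37.6, 33.4 and 47.6 CPM in crush AAV-null nerves and 7.301, 10.1, 22.2, 15.4 and 26.2 CPM in sham nerves. All crush AAV-null libraries exceeded all sham libraries, and replicate 2 of crush AAV-CNTF lay within the sham range. With AAV-null, it rose by a log2 fold change of 1.16 ± 0.26 (SE; edgeR adjusted p = 0.00195).

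**Figure D2:**
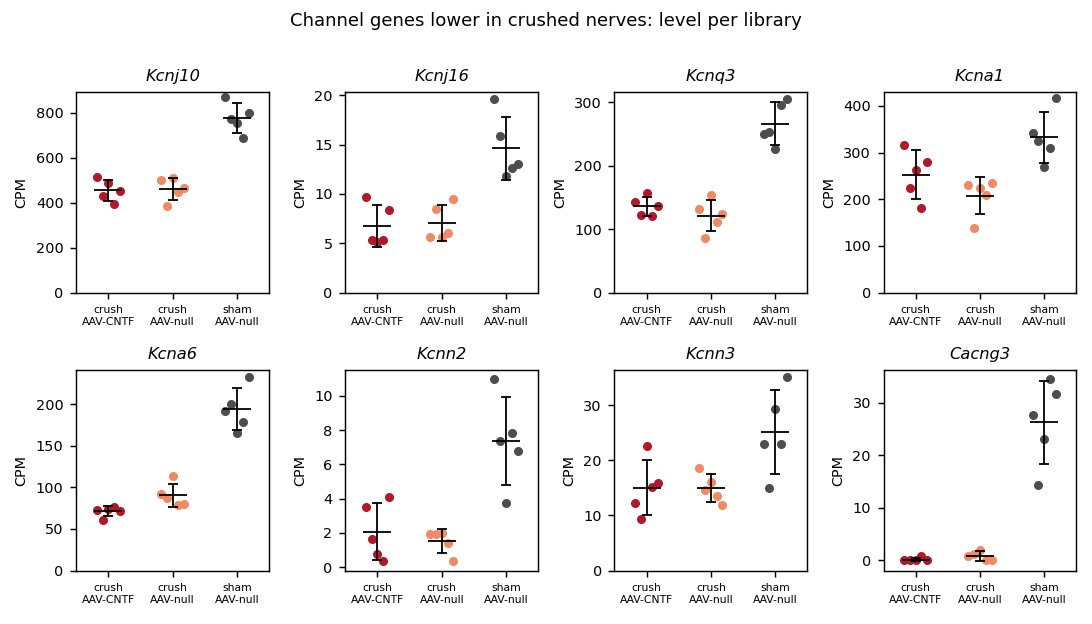
CPM in each library (points), with group mean and SD (lines, n = 5 each), for 8 channel genes lower after crush with AAV-null, in crush AAV-CNTF, crush AAV-null and sham nerves. Kcnj10, Kcnj16, Kcnq3, Kcna6 and Cacng3 show no overlap of crush and sham libraries, and Cacng3 sits near 0 in both crush groups.

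Of the 14 voltage-gated potassium channel alpha subunits, 5 fell with AAV-null (35.7%, against 12.9% of all genes tested) and none rose. Kcna1 (chr6:126640397-126646384) had 317, 223, 263, 181 and 281 CPM in crush AAV-CNTF nerves, 231, 139, 224, 209 and 235 CPM in crush AAV-null nerves and 341, 326, 269.8, 309 and 416 CPM in sham nerves. Every crush AAV-null library lay below every sham library, whereas crush AAV-CNTF replicates 2 and 6 lay within the sham range. Crush AAV-null over sham came to a log2 fold change of -0.68 ± 0.15 (SE; edgeR adjusted p = 0.00191). Kcna2, its partner at the juxtaparanode, had 35.9 ± 2.97 CPM in crush AAV-CNTF nerves, 43.9 ± 8.54 CPM in crush AAV-null nerves and 63.9 ± 1.17 CPM in sham nerves (SD, n = 5 each), with a log2 fold change of -0.54 ± 0.13 (SE; edgeR adjusted p = 0.00269).

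Kcna6 (chr6:126708329-126740674), a related delayed rectifier, had 73.1, 60.7, 73.9, 76.2 and 71.6 CPM in crush AAV-CNTF nerves, 91.8, 87.02, 114, 78.6 and 80.3 CPM in crush AAV-null nerves and 192, 201, 165, 179 and 233 CPM in sham nerves. All crush libraries were well below all sham libraries. Its log2 fold change was -1.10 ± 0.12 (SE; edgeR adjusted p = 3.76e-07), and 39.6% of its exonic bases overlap an antisense gene, whose reads cannot be told apart from its own here. Kcnq3 (chr15:65986387-66286642), an M-type channel subunit of nodes and axon initial segments, had 142, 123, 157, 121 and 136 CPM in crush AAV-CNTF nerves, 131, 86.8, 153, 111 and 123 CPM in crush AAV-null nerves and 251, 254, 226, 296 and 306 CPM in sham nerves. The groups did not overlap, and the log2 fold change was -1.14 ± 0.13 (SE; edgeR adjusted p = 1.13e-06).

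Kcnd3, an A-type channel, had 13.3, 16.9, 18.5, 21.2 and 26.9 CPM in crush AAV-CNTF nerves, 18.6, 15.96, 37.1, 16.6 and 14.2 CPM in crush AAV-null nerves and 30.5, 42.4, 34.6, 34.1 and 42.9 CPM in sham nerves. Crush AAV-null replicate 4 lay within the sham range, apart from the other 4 libraries of its group, and the log2 fold change was -0.85 ± 0.24 (SE; edgeR adjusted p = 0.01). Its FPKM varied more than its counts, at 5.59 ± 1.53 FPKM in crush AAV-CNTF nerves, 18.1 ± 19.4 FPKM in crush AAV-null nerves and 20.3 ± 14.1 FPKM in sham nerves (SD, n = 5 each). The other A-type gene, Kcnd1, had 18.4, 14.01, 15.9, 14.1 and 11.5 CPM in crush AAV-CNTF nerves, 8.12, 12.1, 13.2, 14.3 and 10.5 CPM in crush AAV-null nerves and 9.31, 9.69, 5.17, 11.7 and 7.003 CPM in sham nerves, and did not pass with AAV-null (edgeR adjusted p = 0.196). The remaining 8 alpha subunits did not pass: Kcna3, a channel of T cells and microglia, had 9.898 ± 1.92 CPM in crush AAV-CNTF nerves, 7.02 ± 1.68 CPM in crush AAV-null nerves and 8.27 ± 1.81 CPM in sham nerves (SD, n = 5 each), with a log2 fold change of -0.24 ± 0.27 (SE) for crush AAV-null over sham. The other 7 had log2 fold changes between -0.65 for Kcnh5 and 2.22 for Kcns3, a silent subunit that modifies other channels and had 2.98 ± 1.28 CPM in crush AAV-CNTF nerves, 1.99 ± 1.15 CPM in crush AAV-null nerves and 0.432 ± 0.761 CPM in sham nerves (SD, n = 5 each; edgeR adjusted p = 0.131). Among those between them were the delayed rectifier Kcna5 (0.39) and Kcnh2 (0.51). Over the 14 genes, FPKM summed to 139 ± 17.4 in crush AAV-CNTF nerves, 140 ± 32.4 in crush AAV-null nerves and 197 ± 26.3 in sham nerves (SD, n = 5 each), and crush AAV-null and sham overlapped.

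Genes of partner proteins at the node and of axon transcripts were set beside these falls. Of 22 genes of the node, paranode and juxtaparanode, 11 were lower and 3 higher after crush with AAV-null (edgeR, adjusted p under 0.05). Of all genes tested, 12.9% were lower and 14.7% higher. Lower were the nodal spectrin Sptbn4 (log2 fold change -5.96 ± 0.36, SE), the ankyrin Ank3 (-1.03 ± 0.12), the juxtaparanodal adhesion proteins Cntnap2 (-1.82 ± 0.56) and Cntn2 (-1.13 ± 0.11), and the scaffolds Dlg2 (-1.20 ± 0.15) and Adam22 (-0.87 ± 0.11), with Hapln2, Dlg1, Epb41l3, Ank2 and Lgi3. Tnr, Vcan and Gldn, which encode matrix proteins of the node, were higher. Transcripts of retinal ganglion cell axons summed to 175 to 228 CPM in crush AAV-CNTF, 161 to 196 CPM in crush AAV-null and 285 to 305 CPM in sham libraries, with 5 of 11 genes lower and 3 higher with AAV-null. The part of these lists in the channel results was not tested.

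Of the 5 tandem-pore channels, which form the potassium leak, 1 rose and 1 fell with AAV-null. Each is 20.0%, against 14.7% of all genes tested higher and 12.9% lower. Kcnk6, known in macrophages as a potassium efflux channel, had 17.3, 26.8, 26.8, 21.5 and 32.3 CPM in crush AAV-CNTF nerves, 20.2, 28.8, 19.7, 25.4 and 21.4 CPM in crush AAV-null nerves and 12.5, 19.1, 16.6, 14.2 and 9.63 CPM in sham nerves. No crush AAV-null library was as low as the highest sham library, and the log2 fold change was 0.68 ± 0.20 (SE; edgeR adjusted p = 0.0151). The call was lost with the muscle covariate (adjusted p = 0.0928). Kcnk13, the leak channel of microglia, had 38.2, 28.1, 28.9, 26.7 and 28.4 CPM in crush AAV-CNTF nerves, 35.7, 22.4, 21.4, 18.5 and 16.8 CPM in crush AAV-null nerves and 31.9, 51.1, 34.6, 27.4 and 41.2 CPM in sham nerves. Replicate 2 of crush AAV-null lay among the sham libraries and the other 4 below them, and the log2 fold change was -0.70 ± 0.20 (SE; edgeR adjusted p = 0.0124). Over the same libraries the 12 microglia and macrophage genes summed to 2286 to 3545 CPM in crush AAV-CNTF and 2953 to 5717 CPM in crush AAV-null nerves. In sham nerves they summed to 748 to 956 CPM. Of these genes 11 were called higher with AAV-null and P2ry12 was not. The part of these cells in the Kcnk13 result was not tested. Kcnk2, a mechanically gated leak channel of nodes of Ranvier, had 14.2 ± 2.797 CPM in crush AAV-CNTF nerves, 23.4 ± 8.67 CPM in crush AAV-null nerves and 26.8 ± 10.4 CPM in sham nerves (SD, n = 5 each; log2 fold change -0.20 ± 0.27, SE, with AAV-null). The other leak channels, Kcnk1 at -0.50 ± 0.63 and Kcnk5 at -0.12 ± 0.49 (log2 fold change ± SE), did not pass.

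Among the 5 calcium- or sodium-activated channels, 2 small-conductance genes fell with AAV-null (40.0%, against 12.9% of all genes tested). The intermediate-conductance gene rose (20.0%, against 14.7%). Kcnn2, which fell, is listed through sham only, and Kcnn4, which rose, through the crush groups only. Kcnn2 had 3.53, 1.65, 0.777, 0.342 and 4.07 CPM in crush AAV-CNTF nerves, 1.96, 1.91, 2.01, 1.399 and 0.338 CPM in crush AAV-null nerves and 10.98, 7.34, 3.77, 7.83 and 6.801 CPM in sham nerves. All crush AAV-null libraries were below all sham libraries (log2 fold change -2.27 ± 0.64, SE; edgeR adjusted p = 0.0105). Kcnn3 had 12.3, 9.44, 22.6, 15.2 and 15.8 CPM in crush AAV-CNTF nerves, 18.6, 14.6, 16.1, 13.5 and 11.9 CPM in crush AAV-null nerves and 23.03, 14.9, 29.4, 23.1 and 35.1 CPM in sham nerves. Sham replicate 3 lay inside the crush ranges, and the call (log2 fold change -0.75 ± 0.24, SE; edgeR adjusted p = 0.0228) was lost without crush AAV-null replicate 5 or 6 or without sham replicate 4 or 6 (adjusted p = 0.0516 to 0.0849), and with the muscle covariate (0.0627).

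Kcnn4, known from microglia, T cells and red cells, had 6.97, 4.33, 6.44, 4.82 and 1.96 CPM in crush AAV-CNTF nerves, 1.47, 2.09, 3.21, 6.91 and 10.1 CPM in crush AAV-null nerves and 1.23, 1.29, 1.49, 0.161 and 1.54 CPM in sham nerves. The crush AAV-null values were spread over a wide range, the lowest of them within the sham range. On average it rose, with a log2 fold change of 2.05 ± 0.63 (SE; edgeR adjusted p = 0.0184). That call was lost without crush AAV-null replicate 6, its highest library (adjusted p = 0.0794), and without that library and replicate 4 of crush AAV-CNTF together (0.0976). It was also lost with replicate number as a block (0.0576), with the muscle covariate (0.0779) and in limma-voom with sample quality weights (0.115). Kcnma1, the large-conductance channel, at -0.11 ± 0.29, and the sodium-activated Kcnt2, at 0.62 ± 0.47 (log2 fold change ± SE), did not pass.

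Of the 7 auxiliary potassium channel subunits, 1 rose with AAV-null (14.3%, against 14.7% of all genes tested) and none fell. Kcne1l (chrX:142304752-142306294), a subunit with a single membrane span that modifies Kcnq1 channels, had 20.99, 15.5, 12.3, 13.4 and 17.2 CPM in crush AAV-CNTF nerves, 25.1, 16.04, 29.8, 18.96 and 17.3 CPM in crush AAV-null nerves and 1.57, 7.11, 10.01, 4.397 and 5.46 CPM in sham nerves. The crush and sham libraries did not overlap, and the log2 fold change was 1.91 ± 0.34 (SE; edgeR adjusted p = 0.000182). Kcnip3, a calcium-binding partner of A-type channels and the most abundant of the class in sham by FPKM, had 45.6, 25.4, 29.5, 20.3 and 35.1 CPM in crush AAV-CNTF nerves, 46.2, 24.0, 28.1, 28.3 and 42.9 CPM in crush AAV-null nerves and 42.4, 41.6, 36.6, 26.3 and 41.98 CPM in sham nerves. Its groups overlapped, with a log2 fold change of -0.16 ± 0.22 (SE; edgeR adjusted p = 0.653). Kcnab1, a beta subunit of shaker channels, had 2.82 ± 1.37 CPM in crush AAV-CNTF nerves, 1.503 ± 1.39 CPM in crush AAV-null nerves and 5.49 ± 1.99 CPM in sham nerves (SD, n = 5 each). Its crush AAV-null and sham libraries did not overlap, but the difference of -1.86 ± 0.77 (log2, SE) missed the threshold (edgeR adjusted p = 0.0809). The rest of the class, Kcnab2, Kcnip1, Kcnip4 and the beta subunit Kcnmb4 of Kcnma1 channels, had log2 fold changes between -1.99 for Kcnip4 and -0.07 for Kcnab2, and none passed. The non-coding Kcnq1ot1 had 114 ± 25.01 CPM in crush AAV-CNTF nerves, 129.6 ± 17.5 CPM in crush AAV-null nerves and 149 ± 36.3 CPM in sham nerves (SD, n = 5 each; edgeR adjusted p = 0.395).

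**Figure D3:**
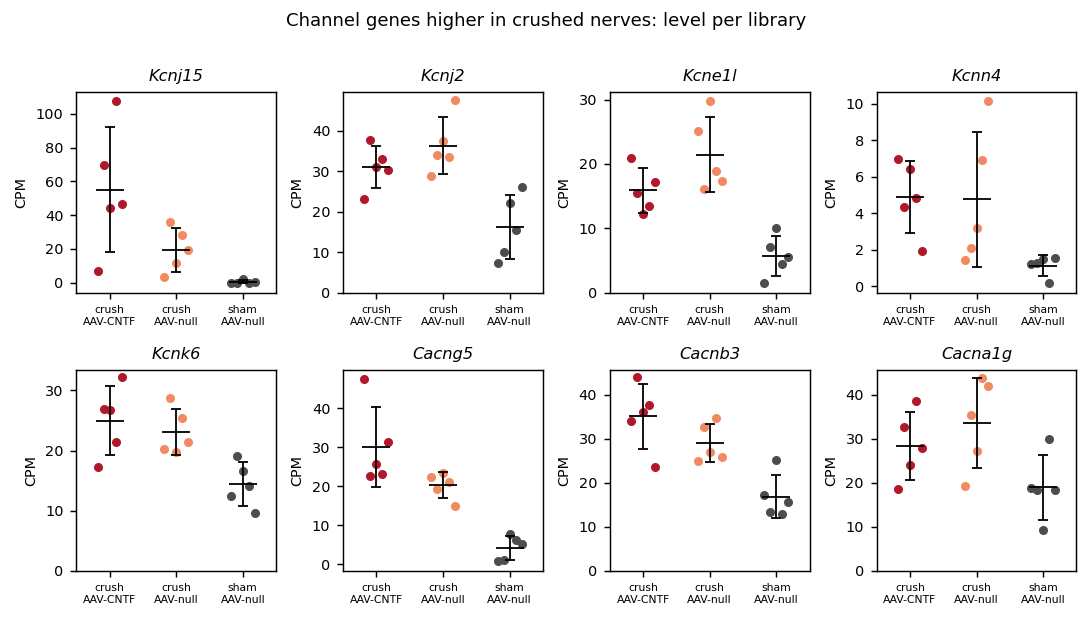
CPM in each library (points), with group mean and SD (lines, n = 5 each), for 8 channel genes higher after crush with AAV-null, in crush AAV-CNTF, crush AAV-null and sham nerves. Kcnj15, Kcne1l and Cacng5 separate every crush library from every sham library, while Kcnn4, Cacnb3 and Cacna1g overlap between crush AAV-null and sham.

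Neither sodium channel pore subunit passed. Scn2a, the isoform of unmyelinated axon, had 4.25, 5.15, 5.02, 9.95 and 6.23 CPM in crush AAV-CNTF nerves, 1.56, 4.49, 3.68, 2.57 and 7.61 CPM in crush AAV-null nerves and 9.51, 4.94, 5.07, 8.42 and 8.14 CPM in sham nerves (edgeR adjusted p = 0.133 for crush AAV-null over sham). Scn8a, the isoform of mature nodes, had 5.01 ± 0.891 CPM in crush AAV-CNTF nerves, 9.64 ± 2.44 CPM in crush AAV-null nerves and 6.75 ± 2.37 CPM in sham nerves (SD, n = 5 each; edgeR adjusted p = 0.226). Scn3b, a beta subunit, had 5.68 ± 2.897 CPM in crush AAV-CNTF nerves, 6.93 ± 2.69 CPM in crush AAV-null nerves and 3.25 ± 1.502 CPM in sham nerves (SD, n = 5 each; edgeR adjusted p = 0.078).

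Of the 5 calcium channel pore subunits, 2 rose with AAV-null (40.0%, against 14.7% of all genes tested). Cacna1g, a T-type channel, had 18.6, 32.7, 24.02, 38.7 and 27.8 CPM in crush AAV-CNTF nerves, 19.4, 35.5, 27.1, 43.96 and 42.1 CPM in crush AAV-null nerves and 18.8, 18.3, 9.17, 30.03 and 18.4 CPM in sham nerves. Crush AAV-null replicates 2 and 4 lay within the sham range. Its log2 fold change was 0.83 ± 0.27 (SE; edgeR adjusted p = 0.0248), and the call was lost without crush AAV-null replicate 5 or 6 or without sham replicate 4 (adjusted p = 0.0578 to 0.0729), and without the pair of libraries that stands apart (0.0704). Cacna1a, the P/Q-type channel, had 37.5, 31.2, 25.03, 39.8 and 41.4 CPM in crush AAV-CNTF nerves, 62.98, 30.6, 37.99, 48.1 and 58.3 CPM in crush AAV-null nerves and 30.1, 36.7, 26.99, 29.1 and 34.6 CPM in sham nerves. Replicate 3 of crush AAV-null lay within the sham range and the other 4 above it. The log2 fold change was 0.60 ± 0.18 (SE; edgeR adjusted p = 0.0194), and the call was lost without crush AAV-null replicate 2 (adjusted p = 0.0671) or 6 (0.0588) and with the muscle covariate (0.079). Cacna1c, an L-type channel, had 21.9 ± 5.08 CPM in crush AAV-CNTF nerves, 22.96 ± 5.47 CPM in crush AAV-null nerves and 16.6 ± 4.76 CPM in sham nerves (SD, n = 5 each; edgeR adjusted p = 0.132). Cacna1d, L-type as well, at 0.31 ± 0.24, and Cacna1h, T-type, at -0.17 ± 0.19 (log2 fold change ± SE), did not pass.

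Of the 4 beta subunits, which carry the pore to the membrane, 1 rose and 2 fell with AAV-null. Of all genes tested, 14.7% were higher and 12.9% lower. Cacnb3 had 34.1, 44.02, 36.04, 37.6 and 23.6 CPM in crush AAV-CNTF nerves, 24.98, 32.6, 26.9, 34.8 and 25.7 CPM in crush AAV-null nerves and 17.2, 13.4, 25.1, 12.8 and 15.6 CPM in sham nerves. One sham library, replicate 4, reached into the crush ranges, and the log2 fold change was 0.79 ± 0.20 (SE; edgeR adjusted p = 0.00428). Cacnb1, the beta subunit of skeletal muscle that other tissues also express, had 11.3, 10.1, 7.87, 12.2 and 13.8 CPM in crush AAV-CNTF nerves, 11.7, 11.6, 14.1, 14.98 and 7.48 CPM in crush AAV-null nerves and 20.8, 19.4, 16.6, 29.3 and 18.5 CPM in sham nerves. The groups did not overlap, sham replicate 5 was highest as for the muscle list, and the fall (log2 fold change -0.80 ± 0.22, SE; edgeR adjusted p = 0.00966) had an adjusted p of 0.0642 with the muscle list as a covariate.

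Cacnb4 had 8.53, 13.2, 10.5, 8.21 and 11.7 CPM in crush AAV-CNTF nerves, 13.1, 10.04, 13.8, 9.88 and 14.5 CPM in crush AAV-null nerves and 13.4, 18.04, 17.9, 40.2 and 25.02 CPM in sham nerves. Sham replicate 5 was again far above the rest, and the log2 fold change of -0.90 ± 0.26 (SE; edgeR adjusted p = 0.0112) moved to -0.60 without that library (adjusted p = 0.0614) and to -0.63 with the muscle covariate (0.117). By mean FPKM crush AAV-null lay above sham, at 1.39 ± 0.265 FPKM in crush AAV-CNTF nerves, 3.68 ± 4.43 FPKM in crush AAV-null nerves and 2.74 ± 1.27 FPKM in sham nerves (SD, n = 5 each). In the other 24 of the 25 calls the direction of mean FPKM matched that of the counts. The last beta subunit, Cacnb2, was at -0.62 ± 0.47 (log2 fold change ± SE) and did not pass. None of the 3 alpha2delta subunits passed, with log2 fold changes of 0.06 ± 0.21 for Cacna2d1, -0.38 ± 0.44 for Cacna2d2 and -0.15 ± 0.46 for Cacna2d4 (SE).

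The gamma subunits held a fall of Cacng3, which is listed through sham only, and a rise of Cacng5, which is listed through the crush groups only. Cacng3 (chr7:122670492-122769393), an AMPA receptor escort of neurons, had 0, 0, 0, 0.7598 and 0 CPM in crush AAV-CNTF nerves, 0.929, 1.29, 2.01, 0 and 0 CPM in crush AAV-null nerves and 27.7, 14.4, 23.04, 34.5 and 31.7 CPM in sham nerves. The whole crush AAV-CNTF group held 20 counts, all in replicate 5, and the crush AAV-null group 95 counts in 3 libraries, against 2799 counts in the sham group. The fitted log2 fold change of crush AAV-null over sham was -4.96 ± 0.94 (SE; edgeR adjusted p = 0.000373). Cacng5 (chr11:107874605-107915055), a relative of the escorts, had 47.4, 22.7, 25.7, 23.2 and 31.2 CPM in crush AAV-CNTF nerves, 22.4, 19.2, 23.4, 21.1 and 15.02 CPM in crush AAV-null nerves and 0.784, 1.25, 7.77, 6.27 and 5.22 CPM in sham nerves. Every crush library exceeded every sham library, and the log2 fold change was 2.25 ± 0.42 (SE; edgeR adjusted p = 0.000355).

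Cacng7 and Cacng4, the abundant members of the class in this glial tissue, moved little. Cacng7 had 113, 84.9, 71.6, 83.2 and 88.7 CPM in crush AAV-CNTF nerves, 114, 75.02, 109.7, 87.6 and 87.04 CPM in crush AAV-null nerves and 140.0, 106, 101, 123 and 119 CPM in sham nerves (edgeR adjusted p = 0.084 for crush AAV-null over sham). Cacng4 had 51.2 ± 15.5 CPM in crush AAV-CNTF nerves, 66.3 ± 16.03 CPM in crush AAV-null nerves and 68.99 ± 4.63 CPM in sham nerves (SD, n = 5 each; edgeR adjusted p = 0.852). Cacng8 was low, at 2.802 ± 1.24 CPM in crush AAV-CNTF nerves, 2.31 ± 2.21 CPM in crush AAV-null nerves and 2.36 ± 1.01 CPM in sham nerves (SD, n = 5 each). Among 10 related genes outside the symbols used here, the proton channel Hvcn1 of phagocytes (1.29 ± 0.17), the lysosomal channel Tpcn2 (1.78 ± 0.48) and the calcium release channel Itpr2 (0.57 ± 0.10) were higher after crush with AAV-null, and the chloride channels Clcn2 (-0.50 ± 0.16) and Clcn3 (-0.52 ± 0.11) and the pacemaker channel Hcn2 (-0.68 ± 0.13) were lower (log2 fold change ± SE).

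Promoters of Cacng5 and Kcnj15, which rose, from RefSeq (GRCm38.p6, 250 bases before to 50 after the annotated start), are shown for reference. Short motifs, 2 in number, were searched on both strands in the 73 promoters of the 46 members that the promoter table holds: TGANTCA, the AP-1 core, and TTCNNNGAA, the STAT core. The AP-1 core was in 4 of the 73 member promoters, or 5.48% (of Cacng5, Kcnip3, Kcnip4 and Kcnk2), and in 7.81% of all 32851 promoters. The STAT core was in 6 of the 73, or 8.22% (of Cacna1c, Kcnab1, Kcnip1, Kcnip3, Kcnj16 and Scn2a), and in 8.3% of all promoters. Capitals mark a match, which describes these letters only.
Cacng5 promoter, chr11:107915006-107915305, minus strand: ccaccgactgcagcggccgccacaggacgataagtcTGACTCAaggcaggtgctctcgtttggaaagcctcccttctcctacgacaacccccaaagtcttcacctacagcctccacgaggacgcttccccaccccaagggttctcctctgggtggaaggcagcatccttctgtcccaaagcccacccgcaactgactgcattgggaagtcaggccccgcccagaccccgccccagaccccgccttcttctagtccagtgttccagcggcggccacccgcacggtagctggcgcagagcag
Kcnj15 promoter, chr16:95257308-95257607, plus strand: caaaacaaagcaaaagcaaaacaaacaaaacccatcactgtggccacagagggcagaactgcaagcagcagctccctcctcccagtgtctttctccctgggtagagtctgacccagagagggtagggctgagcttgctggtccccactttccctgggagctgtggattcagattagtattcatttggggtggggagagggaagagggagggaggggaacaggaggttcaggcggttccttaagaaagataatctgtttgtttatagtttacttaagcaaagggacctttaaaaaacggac
Neither motif was found in the Kcnj15 window, and the Cacng5 window shown held the AP-1 core once. The table holds another Cacng5 promoter, chr11:107911313-107911612, with neither motif.

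The comparison of AAV-CNTF with AAV-null in crushed nerves asks what the CNTF vector adds to the injury. No member was called in either direction by edgeR's quasi-likelihood test after Benjamini-Hochberg adjustment, and limma-voom and DESeq2 called none either, where edgeR called 0.0564% of all genes tested (0.0423% higher and 0.0141% lower). At an unadjusted p under 0.05 there were 11 members, 3 higher and 8 lower (18.03% of 61, against 7.69% of all genes tested). The libraries did not overlap for 2 members, Scn8a and Kcna6 (3.28%, against 1.55% of all genes). The values that follow are therefore differences that did not pass, and the adjusted p was 0.345 or higher for each member.

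Scn8a had the lowest unadjusted p. Its 5 crush AAV-CNTF libraries lay between 4.05 and 6.25 CPM and its 5 crush AAV-null libraries between 7.64 and 13.4 CPM. The log2 fold change was -0.94 ± 0.30 (SE; edgeR unadjusted p = 0.00522, adjusted p = 0.345). Kcna6, whose values are given above, had a log2 fold change of -0.35 ± 0.11 (SE; adjusted p = 0.381, edgeR), and Kcnk2 one of -0.72 ± 0.27 (SE; adjusted p = 0.467, edgeR).

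Cacna2d4, an alpha2delta subunit known from retina, had 1.88, 2.47, 0.971, 2.77 and 1.996 CPM in crush AAV-CNTF nerves, 5.13, 4.98, 3.803, 2.21 and 10.05 CPM in crush AAV-null nerves and 2.55, 6.51, 6.98, 6.38 and 6.68 CPM in sham nerves. Crush AAV-null replicate 5 lay within the crush AAV-CNTF range, and the log2 fold change was -1.37 ± 0.47 (SE; edgeR adjusted p = 0.403). Kcnh5, a channel of the ether-a-go-go family, had 2.56, 1.65, 1.198, 1.82 and 2.83 CPM in crush AAV-CNTF nerves, 6.503, 3.07, 4.36, 4.65 and 2.402 CPM in crush AAV-null nerves and 4.90, 5.03, 3.44, 7.45 and 12.1 CPM in sham nerves. Its crush groups overlapped, with a log2 fold change of -1.06 ± 0.45 (SE; edgeR adjusted p = 0.565). Also lower at the unadjusted level were Cacna1a (-0.44), Kcna2 (-0.29) and Cacng3 (-2.45, from 20 against 95 counts).

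On the higher side, Kcnk5, a leak channel opened by alkaline pH, had 2.32, 9.13, 6.22, 18.4 and 15.2 CPM in crush AAV-CNTF nerves, 2.102, 4.09, 4.66, 5.33 and 3.04 CPM in crush AAV-null nerves and 2.89, 8.63, 2.75, 2.41 and 4.13 CPM in sham nerves. Crush AAV-CNTF replicate 2 was as low as the AAV-null libraries, and the log2 fold change was 1.41 ± 0.49 (SE; edgeR adjusted p = 0.424). Kcnk5 is listed through crush AAV-CNTF only, so its difference is a description. Cacna2d1, the alpha2delta subunit that binds gabapentin, had 33.7, 29.7, 38.9, 30.96 and 19.1 CPM in crush AAV-CNTF nerves, 23.8, 15.3, 13.9, 19.1 and 30.04 CPM in crush AAV-null nerves and 22.3, 21.2, 21.4, 16.5 and 16.5 CPM in sham nerves. Replicate 6 was the lowest of its group with AAV-CNTF and the highest of its group with AAV-null. The log2 fold change was 0.58 ± 0.21 (SE; edgeR adjusted p = 0.464). Kcnj15 was higher by 1.49 ± 0.69 (log2, SE; edgeR adjusted p = 0.63), with AAV-CNTF values of 6.65 to 108 CPM and AAV-null values of 3.23 to 35.6 CPM. For Kcnj10 the crush groups differed by -0.02 ± 0.10 on the log2 scale (SE; edgeR adjusted p = 0.987).

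**Figure D4:**
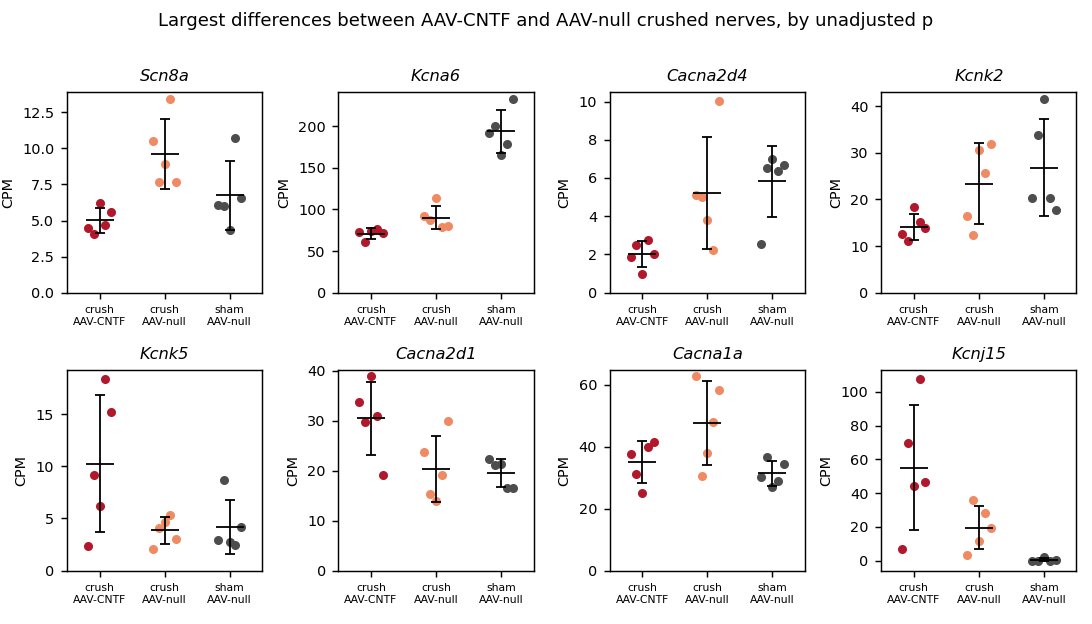
CPM in each library (points), with group mean and SD (lines, n = 5 each), for 8 channel genes with an unadjusted p under 0.05 between the crush groups, in crush AAV-CNTF, crush AAV-null and sham nerves. Scn8a and Kcna6 show no overlap of the crush groups, and none of the 8 passed after adjustment.

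Crush with AAV-CNTF was also set against sham with AAV-null, a comparison that changes injury and vector together and shares its sham libraries with the first one. By the same edgeR test 10 members were higher and 16 lower (42.6%, against 31.3% of all genes tested, where 2406 were higher and 2031, or 14.3%, lower). With the skeletal muscle covariate the count of lower members was 8. The muscle list itself differed between groups, with mean sums of 18.8 CPM in crush AAV-CNTF, 26.1 CPM in crush AAV-null and 71.9 CPM in sham libraries. That covariate can therefore also take up part of the difference between crush and sham, and the part of muscle in the lost calls was not tested. An unadjusted p under 0.05 was found for 59.0% of members and 40.3% of all genes, and for crush AAV-null over sham for 50.8% and 37.1%. The crush AAV-CNTF and sham libraries did not overlap for 24.6% of members and 23.0% of all genes. For the inward rectifiers the log2 fold changes over sham were -0.77 ± 0.10 with AAV-CNTF and -0.75 ± 0.10 with AAV-null for Kcnj10, -1.12 ± 0.27 and -1.05 ± 0.27 for Kcnj16, 0.94 ± 0.26 and 1.16 ± 0.26 for Kcnj2, and 6.84 ± 0.94 and 5.35 ± 0.90 for Kcnj15 (SE). Members called here but not with AAV-null were Cacna2d1, Kcnd1 and Kcnk5, which were higher, and Cacna1h, Cacna2d4, Cacng7, Kcnh5 and Kcnk2, which were lower. Members called with AAV-null but not here included Cacna1a and Cacna1g, higher there, and Kcna1, Kcnj3, Kcnj8 and Kcnk13, lower there. For none of the 15 genes called in one of these comparisons and not in the other did the direct comparison of the crush groups pass, so a difference between the vectors was not shown for them.

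Some of these values show how close the calls lay to the threshold. Kcna1 over sham was -0.39 ± 0.15 with AAV-CNTF (SE; edgeR adjusted p = 0.0553), and the direct difference between the crush groups was 0.29 ± 0.15 (SE; adjusted p = 0.71). Kcnk13 over sham was -0.31 ± 0.20 with AAV-CNTF (SE; edgeR adjusted p = 0.266), with a direct difference of 0.39 ± 0.20 (SE; adjusted p = 0.694). Kcnk5, listed through crush AAV-CNTF only, was called in this comparison with an adjusted p of 0.0487 (edgeR). It lost the call in 16 of 25 settings. Cacna1h, with an adjusted p of 0.0406 (edgeR), lost it in 10, among them the replicate block (0.0662), the muscle covariate (0.207) and limma-voom. Cacna2d1 and Kcnn2 lost it in 6 each, Kcnn3 in 5, Cacng7 in 4 and Kcnn4 in 2. With the muscle covariate and in no other setting run, Cacna2d4, Kcnh5, Cacnb1, Cacnb4, Kcnd3 and Kcnk6 lost theirs. Kcnk2 lost its call without sham replicate 4 and Kcnj15 in limma-voom. Kcnd1, at 0.79 ± 0.24 over sham (SE; edgeR adjusted p = 0.0171), lost it in none.

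The authors' deposited table names 9 members up and 14 down for crush AAV-null over sham, none for AAV-CNTF over AAV-null after crush, and 10 up and 16 down for crush AAV-CNTF over sham. Over all genes the authors' deposited table names 19.2%, 0.478% and 23.1% in the same order of comparisons. All 23 of the first comparison were also called here in the same direction, as were 9 of the 10 and 14 of the 16 of the last.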

How the data were processed

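Per the submitters' processing notes, the tools were Trimmomatic 0.32, STAR 2.5.3a, RSEM 1.2.31, DESeq2 and R 3.2.3, and the genome build was mm10. The annotation, the strand setting and the kit of each library were not stated in those notes or the labels. Per the file headers, the deposited table holds RSEM expected counts per gene and library, which the authors did not normalize. It also holds FPKM values, scaled by the authors for gene length and depth. Each pair of groups has a log2 fold change and an adjusted p-value from the authors.

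Expected counts were rounded (13.7% to 18.3% were not whole) and fitted with edgeR 4.0.16 (R 4.3.3), using TMM scaling, filterByExpr, and quasi-likelihood tests in 1 model with a mean per group over 15 libraries (12 residual degrees of freedom). Benjamini-Hochberg adjustment ran over the 14194 genes tested, with 0.05 as the threshold. The common biological coefficient of variation was 0.371, and the spread between libraries, more than counting error, limits precision above a few CPM. The replicates are biological per the labels, and their animals are not named. Replicates of a group differed beyond sampling noise (chi-square over degrees of freedom 40.5 to 153). The steps were tested on simulated counts.

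Some members and related genes entered every count but are not reported here one by one. The members, classes, marker lists and tests were chosen with earlier results of these data known. Values in every library are given for up to 10 called members per comparison and direction, by size of change where the mean was 1 CPM or more, and for the most abundant member of each class in sham. Some further channels of nodes and glia are named whatever their values. Gene positions and overlaps are from GENCODE M21 (GRCm38), where all 61 identifiers matched, 53 with their version. Whether equal replicate numbers mark pairs was checked through correlated deviations from the group means, -0.0525 to 0.113 over 15 pairs, and they were not treated as pairs. Alternatives were RLE and upper quartile scaling, dropping the low-count filter or replacing it by a mean of 1 CPM, only the 10 libraries compared, a covariate for the skeletal muscle list, a block for the replicate number, each library left out in turn, both libraries that stand apart (replicate 6 with AAV-null and replicate 4 with AAV-CNTF after crush) left out together, limma-voom (limma 3.58.1) with sample quality weights, and DESeq2 1.42.0.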

Additional observations from a re-analysis of the deposited data

Results flagged for a closer look

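Among 32 of the channel genes, chosen by the rule for values in every library, each of the 96 sets of 5 libraries was checked for 1 library far from the other 4, by Dixon's ratio of the gap to the range with a critical value of 0.71. Of these, 9 sets were marked, and chance marks about 1 in 20. In the crush AAV-CNTF group, Cacng3 in replicate 5 had 0.760 CPM where the others had 0. Kcnj8 in replicate 3 had 9.61 CPM, and the others 5.99 to 6.80 CPM. Kcnk13 in replicate 2 had 38.2 CPM, and the others 26.7 to 28.9 CPM.

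In the crush AAV-null group, Kcna1 in replicate 3 had 139 CPM, and the others 209 to 235 CPM. Kcnd3 in replicate 4 had 37.1 CPM, and the others 14.2 to 18.6 CPM. In the sham group, Cacna2d4 in replicate 2 had 2.55 CPM, and the others 6.38 to 6.98 CPM. Kcnj15 in replicate 4 had 2.14 CPM, and the others 0 to 0.202 CPM. Kcnk5 in replicate 3 had 8.63 CPM, and the others 2.41 to 4.13 CPM. Kcnn4 in replicate 5 had 0.161 CPM, and the others 1.23 to 1.54 CPM.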

How the results depend on the processing

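Of the 25 channel genes called for crush AAV-null over sham, 15 were called in every setting (4 higher and 11 lower), and of the 26 called for crush AAV-CNTF over sham, 11 (5 higher and 6 lower). For crush AAV-null over sham the count of higher members was 6 to 10 when each library was left out in turn, lowest without crush AAV-null replicate 6, and 10 with all libraries. For crush AAV-CNTF over sham the count of lower members was 8 with the skeletal muscle covariate and 16 without it. With replicate number as a block the counts were 9 higher and 16 lower for crush AAV-null over sham and 11 higher and 18 lower for crush AAV-CNTF over sham. AAV-CNTF over AAV-null gave 0 members under every setting run. Over all genes that comparison gave 6 higher and 2 lower, against 14 higher and 2 lower with the block. Uncalled genes changed sign in 7 cases, all for crush AAV-null over sham, on the log2 scale. Cacna2d1 (0.06) ranged from -0.12 without crush AAV-null replicate 6 to 0.17 without crush AAV-null replicate 4, and was -0.12 with both libraries that stand apart left out and -0.039 in limma-voom. Cacng4 (-0.06) was 0.0051 with the same pair left out, 0.0052 without crush AAV-null replicate 6 and 0.018 without crush AAV-null replicate 3. Kcnk2 (-0.20) ranged from -0.33 without crush AAV-null replicate 6 to 0.019 without sham replicate 4. The cause of these changes was not tested. Members near 1 CPM rest on few reads.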
